A study of Mus musculus with 24 samples.

Results

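The cytosolic ribosomal protein genes encode the protein part of the ribosome outside mitochondria. They were taken here as the protein_coding genes of GENCODE M21 whose symbol begins with Rpl or Rps and a digit, or is Rpsa, leaving out the S6 kinase genes (Rps6k) and pseudogene symbols. Matched by Ensembl ID, 83 such genes were found among the 51826 genes of the count table. Of these, 43 encode core proteins of the large subunit, 31 encode core proteins of the small subunit, and 9 are paralogs or look-alikes such as Rpl22l1, Rps27l and Rps19bp1. Because the symbol defines the group, the acidic stalk genes Rplp0, Rplp1 and Rplp2 fall outside it.

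RNA was measured in the dorsal hippocampus of male C57BL/6j mice aged 2 to 4 months, in 24 libraries. The study's methods instead describe mice of both sexes, and do not say which were used for sequencing. CBP KIX/KIX mice carry substitutions in the KIX domain of the CREB-binding protein in every cell, and WT mice carry the normal protein. RNA-Seq 1 was made from total RNA after ribosomal RNA removal (Ribo-Zero gold) and holds 3 WT homecage libraries, 3 WT libraries after the Morris water maze (MWM), and 3 CBP KIX/KIX libraries after MWM. RNA-Seq 2 holds 3 WT homecage libraries, 4 WT libraries after contextual fear conditioning (CFC), 4 CBP KIX/KIX homecage libraries and 4 CBP KIX/KIX libraries after CFC. The labels give polyA selection for the WT and CFC libraries of RNA-Seq 2 and give no library type for its CBP KIX/KIX homecage libraries. Tissue was taken 1 h after training, and homecage mice were not trained. The study describes mutants and WT littermates, but the labels tie a library to its group only by a replicate number, so the p-values measure the spread between these libraries.

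Ribosomal protein genes are among the most highly transcribed genes of any cell, and their products are needed in equal numbers in each ribosome. Many of their mRNAs begin with a C followed by a run of pyrimidines, the 5′ terminal oligopyrimidine (TOP) motif, through which mTOR signalling and the RNA-binding protein Larp1 control translation of the whole family. In neurons these mRNAs are also found in dendrites and axons, and protein synthesis after training is needed for long-term memory. CBP is a coactivator that binds phosphorylated CREB through the KIX domain, and CREB binds the cAMP response element (CRE).

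Total counts ran from 38174044 to 65709282 per library in RNA-Seq 1 and from 15385836 to 46056290 in RNA-Seq 2. In RNA-Seq 2 the 8 libraries numbered 1 and 2 held 30143949 to 46056290 counts and the 7 numbered 3 and 4 held 15385836 to 20568337, in every group. Libraries 3 and 4 of the CBP KIX/KIX homecage group stood apart from the rest, and the summed astrocyte markers of that group ran from 3454 to 5440 CPM (counts scaled to a common library size), against 3267 to 3491 in the other groups of RNA-Seq 2. Crebbp, which encodes CBP, was at 164 ± 24.7 CPM in WT and 152.5 ± 13.1 CPM in CBP KIX/KIX after MWM (SD, n = 3 each). A gene count does not show the KIX substitutions, so it does not check the genotype labels.

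The promoters of these genes were examined because the mutation affects a coactivator of CREB and because the TOP motif marks the family. RefSeq promoter windows (GRCm38.p6, 250 bases before to 50 after the annotated start) were matched by symbol for 64 of the 83 genes. The full CRE, TGACGTCA, read on both strands, was in the windows of 5 of the 64 (7.81%) and of 2.03% of all 27025 genes with a window. It is shown in capitals for these 5 genes, with the strand of the gene.
Rpl13, chr8:123102315-123102344, plus strand: gcgggttcgcgTGACGTCActtccctttcg
Rpl18, chr7:45717981-45718010, plus strand: tcgcgctcatgTGACGTCAcccgtgcacca
Rpl26, chr11:68901421-68901450, plus strand: cctccgagggaTGACGTCAggacccctcgc
Rpl27a, chr7:109519087-109519116, plus strand: gccgggagccgTGACGTCAggagcccttcc
Rps9, chr7:3703973-3704002, plus strand: gcggtgcgtgaTGACGTCActacaaggcga

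A C followed by pyrimidines, at least 5 bases in all and starting exactly at the annotated start, was found in 13 of the 64 genes (20.3%) and in 3.01% of all genes. Within 5 bases of the start the shares were 45.3% and 21.2%. The runs are shown in capitals for Rps6, the S6 kinase substrate of the small subunit, for Rpl38 and Rps15a, whose runs begin at the annotated start, and for Rpl14, which recurs in the results.
Rps6, chr4:86857348-86857377, minus strand: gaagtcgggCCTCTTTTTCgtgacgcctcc
Rpl38, chr11:114668570-114668599, plus strand: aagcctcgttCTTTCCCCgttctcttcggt
Rps15a, chr7:118116128-118116157, minus strand: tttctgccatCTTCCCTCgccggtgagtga
Rpl14, chr9:120571507-120571536, plus strand: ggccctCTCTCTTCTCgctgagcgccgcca
The ETS motif CCGGAAG, read on both strands, was in 39.1% of the 64 genes and 9.93% of all genes. The TATA box TATAAA, read on the gene strand before the start, was in 3.12% and 8.94%. These are matches of letters, not measured binding.

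The genes also shared their structure. A snoRNA gene lay inside 29 of the 83 on the same strand (34.9%), against 1.18% of all protein_coding genes, and 57 snoRNA genes were inside them in all. Processed copies of ribosomal protein genes are common in the mouse genome, and this limits the counts. Only 16 of the 83 genes had at least 90% of the 100-base windows of their representative transcript in no other annotated gene, and 38 had under 50% of their windows unique.

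Levels per kilobase of transcript differed widely among core genes whose proteins are present in equal numbers. The length used is that of 1 annotated transcript per gene, which ran from 271 to 3706 bases among core genes (median 740). Rps20, at 3706 bases, thus came to 12.25 CPM per kilobase in RNA-Seq 1 WT homecage mice, from 45.0, 40.9 and 50.3 CPM. The part of this choice of transcript in the spread was not tested. Across the 74 core genes of WT homecage mice, the median was 87.6 CPM per kilobase in RNA-Seq 1, with a range from 1.10 to 361. In RNA-Seq 2, which was scaled separately, the median was 193, with a range from 2.70 to 465. The highest in RNA-Seq 1 were the small subunit gene Rps14 at 361 ± 17.9, Rps29 at 325 ± 34.3, the large subunit gene Rpl8 at 287 ± 9.30 and Rps28 at 262 ± 20.1 CPM per kilobase (SD, n = 3). Rps14 and Rps29 overlapped in range, as did Rps29 and Rpl8, and Rpl8 and Rps28. The highest in RNA-Seq 2 were Rps15 at 465 ± 24.3, Rps29 at 379 ± 22.7, Rps21 at 378 ± 34.9 and Rpl9 at 363 ± 25.6, of which the last 3 overlapped.

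The lowest core gene was Rpl24, at 1.10 ± 0.0594 CPM per kilobase in RNA-Seq 1 and 2.70 ± 0.0517 in RNA-Seq 2. Only 19.9% of its windows were unique, and 47.0% of its exon bases were shared with another gene on the same strand. Rpl13a was also low, at 9.74 ± 0.463 and 17.5 ± 0.240, with 44.8% unique windows and 35.4% shared exon bases. The levels of these core genes therefore carry this limit on assignment of reads, whose part was not tested.

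The tissue-restricted paralogs were at or near the floor. Rpl10l, a testis paralog of Rpl10, had 0 counts in all 24 libraries, and 3 counts, the upper limit that a count of 0 allows, came to 0.0457 to 0.195 CPM. Rpl39l reached at most 0.159 CPM. Rpl3l, the striated muscle paralog of Rpl3, had 16 counts in the 3 WT homecage libraries of RNA-Seq 1 against 32831 for Rpl3. Rpl22l1, which also binds RNA and can replace Rpl22, was well expressed. Its counts were 18.2 ± 2.94% of those of Rpl22 in RNA-Seq 1 and 41.4 ± 2.69% in RNA-Seq 2 in WT homecage mice (SD, n = 3).

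Taken as one quantity, the 83 genes took 0.486% to 0.702% of all counts in RNA-Seq 1 and 0.954% to 1.15% in RNA-Seq 2. In RNA-Seq 1 the 3 WT homecage libraries were at 0.522%, 0.486% and 0.654%. The 3 WT MWM libraries were at 0.613%, 0.583% and 0.657%, and the 3 CBP KIX/KIX MWM libraries at 0.665%, 0.702% and 0.680%. Every CBP KIX/KIX library was above every WT library of RNA-Seq 1, and the 2 WT groups overlapped. In bulk tissue, fewer cells of a type and less RNA per cell cannot be told apart.

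**Figure D1:**
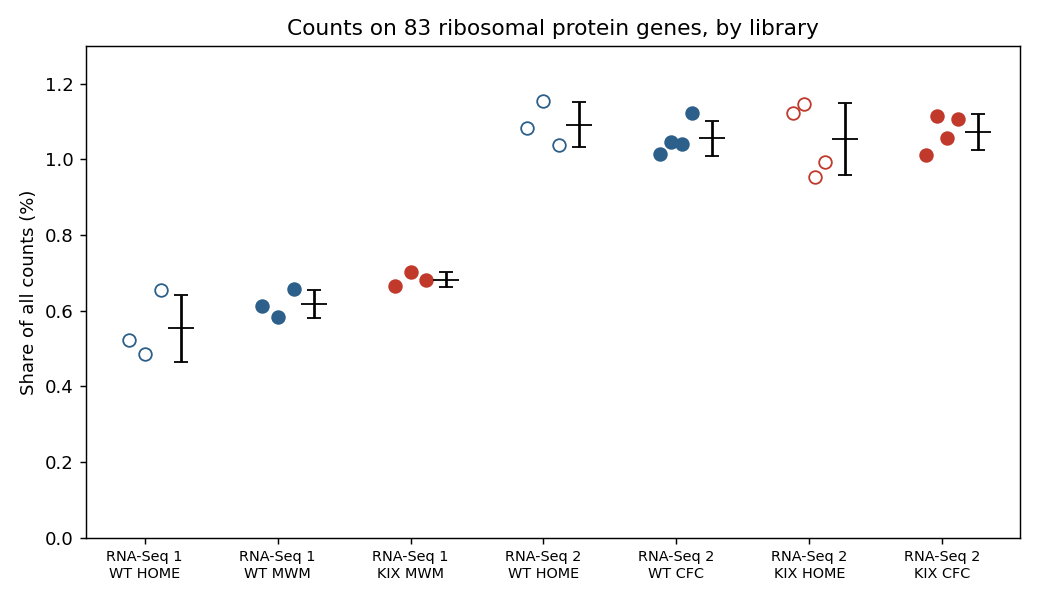
Share of all counts (%) on the 83 ribosomal protein genes in each library, by group. Blue is WT, red is CBP KIX/KIX, open circles are homecage, filled circles are trained, and the black mark and bar give the mean ± SD. RNA-Seq 2 libraries lie between 0.954% and 1.15%, and RNA-Seq 1 libraries between 0.486% and 0.702%.

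In RNA-Seq 2 the group means did not separate. The share was 1.09 ± 0.0586% in WT homecage (n = 3), 1.05 ± 0.0467% in WT after CFC (n = 4), 1.05 ± 0.0944% in CBP KIX/KIX homecage (n = 4) and 1.07 ± 0.0482% in CBP KIX/KIX after CFC (n = 4; all SD). The spread was widest in the CBP KIX/KIX homecage group, whose libraries 1 and 2 were at 1.12% and 1.15% and whose libraries 3 and 4 were at 0.954% and 0.994%.

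The genes moved together from library to library. After group means were removed, the median correlation over pairs of these genes was 0.755 across the 15 libraries of RNA-Seq 2 and 0.493 across the 9 of RNA-Seq 1. For the mitochondrial ribosomal protein genes the medians were 0.157 and 0.106, for respiratory chain genes 0.427 and 0.254, and for ribosome biogenesis genes 0.0936 and 0.162. The share of the variation along the strongest common pattern (first component) ordered the lists otherwise. In RNA-Seq 2 it was 47.1% for these genes, 65.5% for respiratory chain and 28.9% for biogenesis genes. In RNA-Seq 1 it was 54.3%, 52.1% and 62.0%. Moving together was thus not particular to this family by that measure. Pairs share libraries and read depth, so these values describe the libraries and were not tested.

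**Figure D2:**
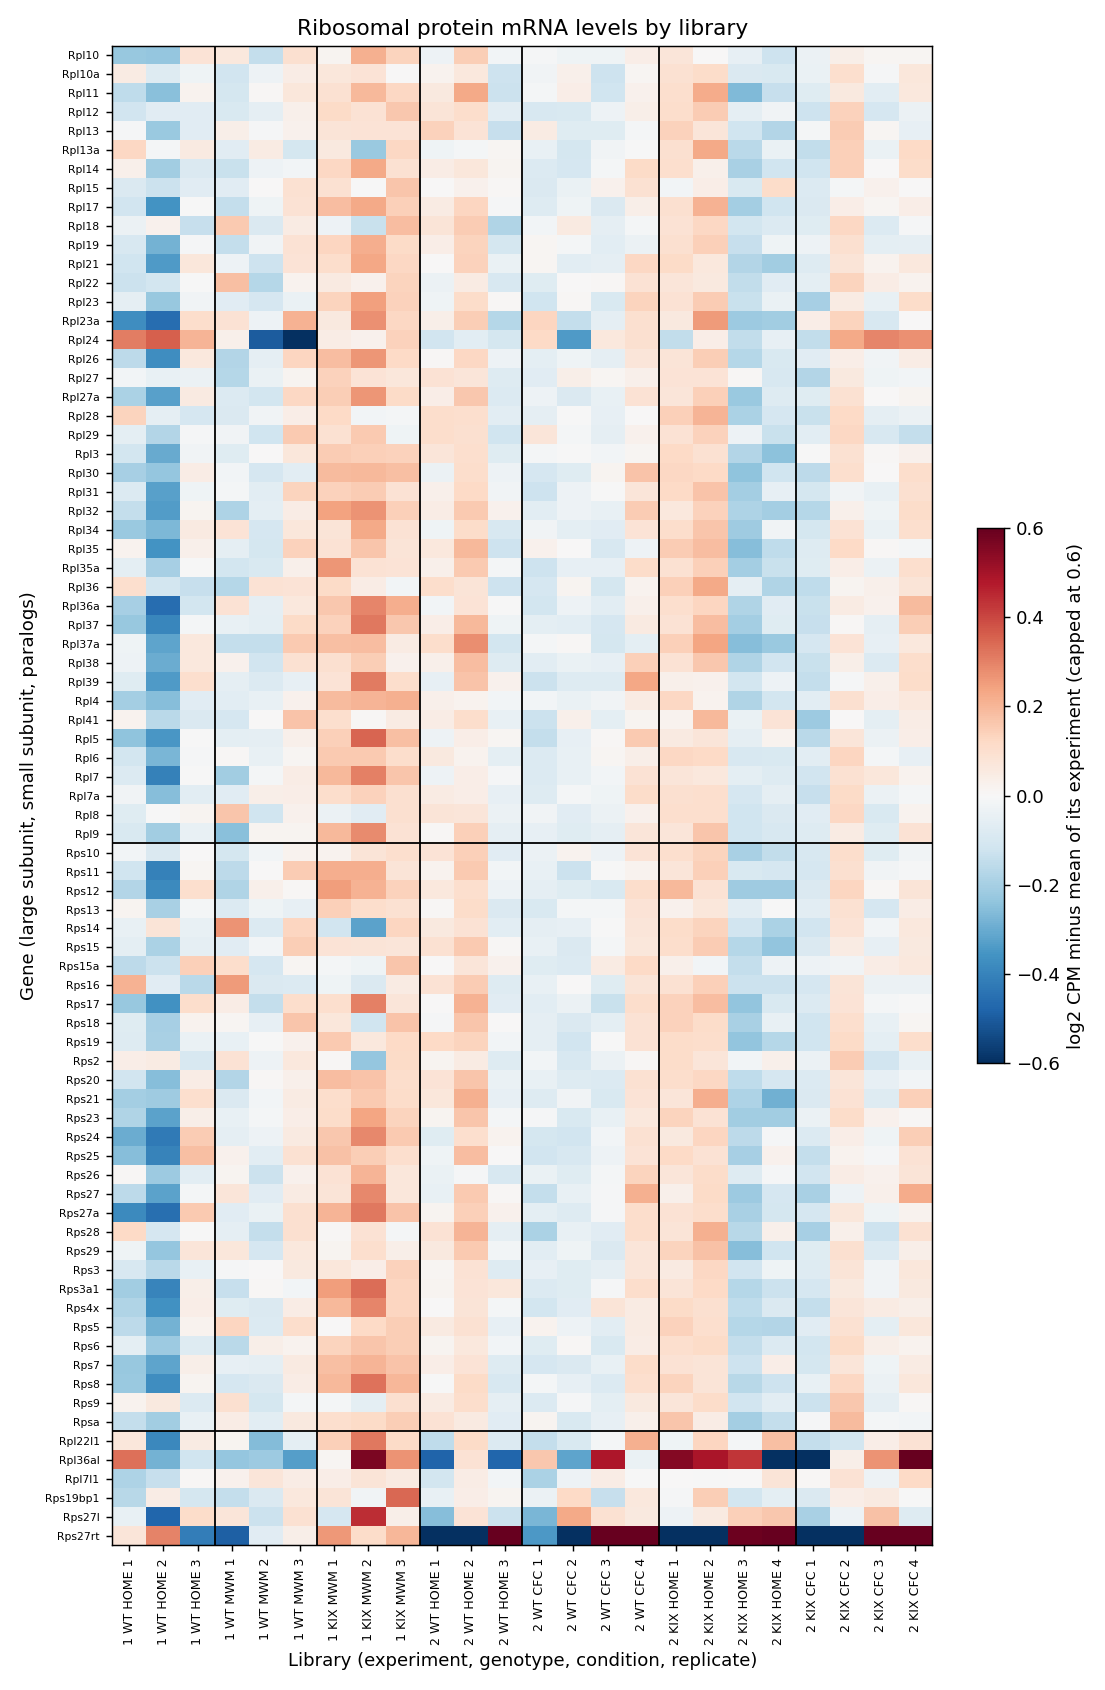
Rows are ribosomal protein genes above 0 in every library and columns are libraries, coloured by log2 CPM minus the mean of its experiment, with red above, blue below and colours capped at 0.6. Many rows share the shade of their column, as in the blue WT homecage library 2 and the red CBP KIX/KIX MWM library 2 of RNA-Seq 1, and the rows of Rpl24, Rpl36al and Rps27rt depart from it.

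The study asked which genes depend on the KIX domain after learning. Across both experiments, 5 of the 81 genes that passed the filter on low counts were higher in CBP KIX/KIX mice after training and 0 were lower, at an adjusted p under 0.05. Over all 21489 genes tested, 2.84% passed, 1.18% higher and 1.66% lower. At an unadjusted p under 0.05 there were 43 of the 81, against 18.2% of all genes. The log2 fold change was positive for 75 of the 81, against 47.7% of all genes, and its median was 0.08 against -0.01 for all genes. The 5 genes were Rpl7, Rpl9 and Rpl14 of the large subunit and Rps12 and Rps3a1 of the small subunit. The differences were about 10% or less in size.

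Rpl7 (chromosome 1, 16101295 to 16104662, minus strand, mm10) was at 83.3, 95.5 and 99.3 CPM in WT and 110, 119 and 108 CPM in CBP KIX/KIX mice after MWM. After CFC it was at 200.2, 205, 209 and 225 CPM in WT and 195, 226, 222 and 215 CPM in CBP KIX/KIX. The genotypes separated completely after MWM and overlapped after CFC. The combined difference was 0.14 ± 0.03 on the log2 scale (SE, adjusted p = 0.0228, edgeR).

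Rps12 (chromosome 10, 23785183 to 23787275, minus strand) was at 51.9, 60.1 and 59.1 CPM in WT and 69.9, 67.9 and 64.6 CPM in CBP KIX/KIX after MWM. Its values after CFC were 125, 124, 122 and 140.2 CPM in WT and 123, 142, 131 and 137 CPM in CBP KIX/KIX. The groups were again apart after MWM and mixed after CFC, with a combined log2 difference of 0.14 ± 0.03 (SE, adjusted p = 0.0267, edgeR).

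Rps3a1 (chromosome 3, 86137940 to 86142702, minus strand), Rpl9 (chromosome 5, 65388364 to 65391444, minus strand) and Rpl14 (chromosome 9, 120571444 to 120574654, plus strand) followed the same pattern. After MWM, Rps3a1 was at 96.5, 107 and 105 CPM in WT and 126, 134 and 116 CPM in CBP KIX/KIX. Rpl9 was at 94.8, 114 and 114 CPM against 129, 137 and 120 CPM, and Rpl14 at 91.2, 98.0 and 99.0 CPM against 109, 117 and 107 CPM. All 3 separated by genotype after MWM. They are among the 41 of 81 genes in which every CBP KIX/KIX library was above every WT library after MWM, against 8.18% of all genes. The 5 genes were called in a fit that includes these libraries, so their separation is not a separate observation. Their combined log2 differences were 0.13 ± 0.03, 0.13 ± 0.03 and 0.12 ± 0.03, with adjusted p of 0.0269, 0.0397 and 0.0423 (edgeR).

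**Figure D3:**
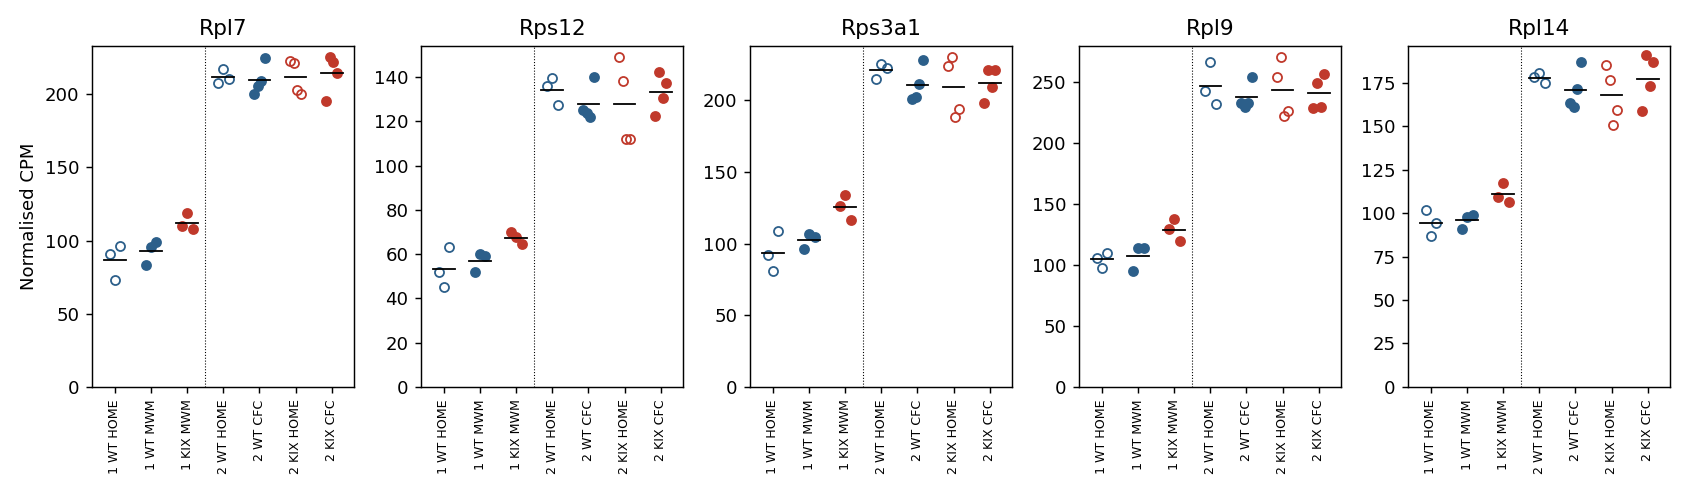
Normalised CPM of Rpl7, Rps12, Rps3a1, Rpl9 and Rpl14 in each library (points) with group means (bars), RNA-Seq 1 left and RNA-Seq 2 right of the dotted line, on linear axes from 0. In RNA-Seq 1 the CBP KIX/KIX points lie above the WT MWM points in each panel, and in RNA-Seq 2 the genotypes overlap.

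The share of 100-base windows found in no other annotated gene was 71.8% for Rpl7, 63.1% for Rpl14, 54.7% for Rps3a1, 20.8% for Rpl9 and 11.1% for Rps12, so reads of copies may be in these counts. Of the 14 tested genes with at least 90% unique windows, 14 had a positive log2 fold change and 0 passed, with a median of 0.09, against 0.08 over the other 67 genes.

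These calls depended on the model. None of the 81 genes passed without the 4 RUVr factors, which are estimates of unwanted variation, or with DESeq2, with GC normalization or without the filter on low counts, whereas the median stayed between 0.07 and 0.08 in these fits. Over all genes, 0.0186% passed without the factors, 0.386% with DESeq2, 0.966% with GC normalization and 0.836% without the filter. The 43 genes at an unadjusted p under 0.05 became 16 of 81 without the factors (8.81% of all genes) and 17 with DESeq2 (8.22%). They became 42 with GC normalization (13.8%) and 29 of 82 without the filter (12.6%). The count of genes that passed adjustment without single libraries ran from 0 to 16. It was 0 without library 1 of the WT MWM group or without library 1 or 2 of the CBP KIX/KIX MWM group. In those 3 fits 1.43%, 1.44% and 1.05% of all genes passed. The count was 1 without library 4 of the CBP KIX/KIX CFC group (1.80% of all genes) and 9 without library 3 of the CBP KIX/KIX MWM group (3.64%). It was 11 without library 2 of the WT MWM group (3.12%), 14 without library 1 of the CBP KIX/KIX CFC group (4.74%) and 16 without library 4 of the WT CFC group (3.94%).

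The lowest p among lower genes belonged to Rps14, with a log2 difference of -0.08 ± 0.04 (SE, adjusted p = 0.221, edgeR). The 5 genes with a CRE in the promoter window gave log2 differences of 0.11 for Rpl26, 0.10 for Rpl27a, 0.06 for Rpl13, 0.02 for Rps9 and -0.01 for Rpl18, and none passed (lowest adjusted p = 0.0948, edgeR).

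The other genes of the translation pathway were followed in the same fit. Among 14 other mRNAs with a TOP motif, 3 were higher and 0 lower, namely Npm1, a nucleolar chaperone, by 0.13 ± 0.03 (adjusted p = 0.0354), Nap1l1, a histone chaperone, by 0.10 ± 0.02 (adjusted p = 0.0374), and Tpt1 by 0.10 ± 0.02 (adjusted p = 0.0417, edgeR). The elongation factor Eef1a1 was at 0.12 ± 0.03 (adjusted p = 0.0559, edgeR). Among 7 snoRNA host genes, Snhg12 was higher by 0.21 ± 0.05 (adjusted p = 0.0281, edgeR). Without the RUVr factors none of these 4 genes passed, with adjusted p in edgeR of 0.587 for Npm1, 0.548 for Nap1l1, 0.664 for Tpt1 and 0.171 for Snhg12. With DESeq2 only Snhg12 of the 4 did (adjusted p = 0.0172), and with GC normalization none did and Nap1l1 was at -0.0047. None of 16 ribosome biogenesis genes or 12 growth regulators such as Mtor and Larp1 passed in either direction. None of 77 mitochondrial ribosomal protein genes or 79 respiratory chain genes tested passed, with medians of 0.04 and 0.02.

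Within RNA-Seq 1 alone, none of the 81 genes passed between CBP KIX/KIX and WT mice after MWM in edgeR (lowest adjusted p = 0.813), and none of all 22276 genes did. At an unadjusted p under 0.05 there were 13 of the 81 (16.0%), against 5.77% of all genes. This count was 3 without CBP KIX/KIX MWM library 2 (3.09% of all genes), 4 without WT MWM library 1 (3.31%), 5 without CBP KIX/KIX MWM library 1 (4.21%) and 7 without WT MWM library 2 (5.02%). It was 22 with TMM normalization (5.96%) and 34 with only the 2 groups compared (10.5%). The log2 fold change was positive for 74 of 81, against 45.9% of all genes, and the median was 0.15, against -0.02. In 41 of 81 every CBP KIX/KIX library was above every WT library, and in 0 every one was below. Over all genes these shares were 8.18% and 9.01%. Because the genes move together, the 41 are not separate observations.

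The widest separations by p were those of Rpl23 and Rpl32, both of the large subunit. Rpl23 was at 62.2, 60.8 and 63.4 CPM in WT and 71.4, 77.2 and 71.7 CPM in CBP KIX/KIX, a log2 difference of 0.24 ± 0.08. Rpl32 was at 37.8, 41.3 and 44.3 CPM in WT and 50.8, 51.8 and 47.4 CPM in CBP KIX/KIX, a difference of 0.28 ± 0.10. Rps14 went the other way, with 260.3, 204 and 236 CPM in WT and 199.6, 173 and 236 CPM in CBP KIX/KIX, a difference of -0.20 ± 0.12. Neither direction passed adjustment.

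Rps6 was at 62.2, 71.4 and 70.7 CPM in WT and 76.4, 78.0 and 77.1 CPM in CBP KIX/KIX after MWM. Rpl5, which with Rpl11 holds back Mdm2 when ribosome assembly fails, was at 69.7, 70.0 and 74.2 CPM against 80.2, 92.4 and 82.3 CPM. Rpl11 was at 45.9, 49.6 and 51.9 CPM against 52.7, 56.6 and 53.8 CPM. Rps19, mutated in Diamond-Blackfan anaemia, was at 72.0, 74.1 and 75.5 CPM against 82.6, 77.5 and 80.5 CPM. These 4 separated by genotype, and none passed adjustment. Of the other 6 genes chosen for a known role, Rps25 also separated, and Rps3, Rpl13a, Rpl10, Rpl38 and Rps19bp1 overlapped. Rpl10, for example, was at 139.7, 121 and 143 CPM in WT and 135, 155 and 147 CPM in CBP KIX/KIX. Thus 5 of these 10 genes separated and 5 did not, a share near the 50.6% of the 81 genes tested, against 8.18% of all genes.

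Rpl7l1, which acts in assembly of the large subunit, did not follow Rpl7. Its counts were 24.9% to 29.3% of those of Rpl7 in WT and 21.3% to 23.0% in CBP KIX/KIX mice after MWM. In RNA-Seq 2 the group means of this ratio lay between 18.9% and 19.7%. Rpl7l1 itself was at 24.4, 25.2 and 24.7 CPM in WT and 24.6, 25.3 and 24.9 CPM in CBP KIX/KIX after MWM.

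Other quantities were examined in the same libraries. Some sums did not overlap between genotypes after MWM. Oligodendrocyte precursor markers were at 101.1 to 112.1 CPM in WT and 93.05 to 100.3 CPM in CBP KIX/KIX. Growth regulators were at 1312 to 1352 CPM and 1280 to 1297 CPM. The other TOP mRNAs were at 4065 to 4536 CPM and 4559 to 4690 CPM, and snoRNA host genes at 95.39 to 104.7 CPM and 108.5 to 119.3 CPM. The ranges of the next quantities overlapped. The share of counts on the mitochondrial genome was 1.74% to 2.08% in WT and 1.95% to 2.25% in CBP KIX/KIX after MWM, and the summed mitochondrial ribosomal protein genes were at 1188 to 1310 CPM and 1291 to 1344 CPM. The summed endothelial markers were at 79.9 to 103 CPM and 75.8 to 90.8 CPM, and the blood markers at 117 to 235 CPM and 92.4 to 132 CPM. The choroid plexus and ependymal markers, which can enter with the dissection, ranged from 160 to 1489 CPM and from 181 to 2528 CPM. Across the 9 libraries of RNA-Seq 1, the median level of the ribosomal protein genes correlated with these overlapping quantities in turn at 0.853, 0.927, -0.79, -0.69 and 0.661. Across the 15 libraries of RNA-Seq 2 the correlations were 0.0548, 0.7, 0.447, -0.345 and -0.0622, so most of these did not recur there. The summed respiratory chain genes correlated at 0.889 in RNA-Seq 1 and 0.57 in RNA-Seq 2, and the microglial markers at -0.456 and 0.746. Astrocyte markers gave 0.388 and -0.399, oligodendrocyte markers 0.288 and 0.331, neuronal markers 0.346 and -0.293, and total counts 0.062 and 0.475. The part of these quantities in the result was not tested.

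After CFC the same genotype comparison gave 0 of 81 genes in edgeR and 0 at an unadjusted p under 0.05. Over all genes, 0.0106% passed and 2.34% had an unadjusted p under 0.05. The median log2 fold change was 0.02 against 0.01 over all genes, with 65 of 81 positive against 53.4%. In 0 of 81 every CBP KIX/KIX library was above or below every WT library, against 1.39% and 1.11% of all genes. Rpl7 differed by 0.03 ± 0.05, Rps12 by 0.06 ± 0.08 and Rpl14 by 0.06 ± 0.07 (SE). The combined comparison is built from these same libraries and those of the MWM comparison, and whether the genotype difference itself differed between MWM and CFC was not tested.

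**Figure D4:**
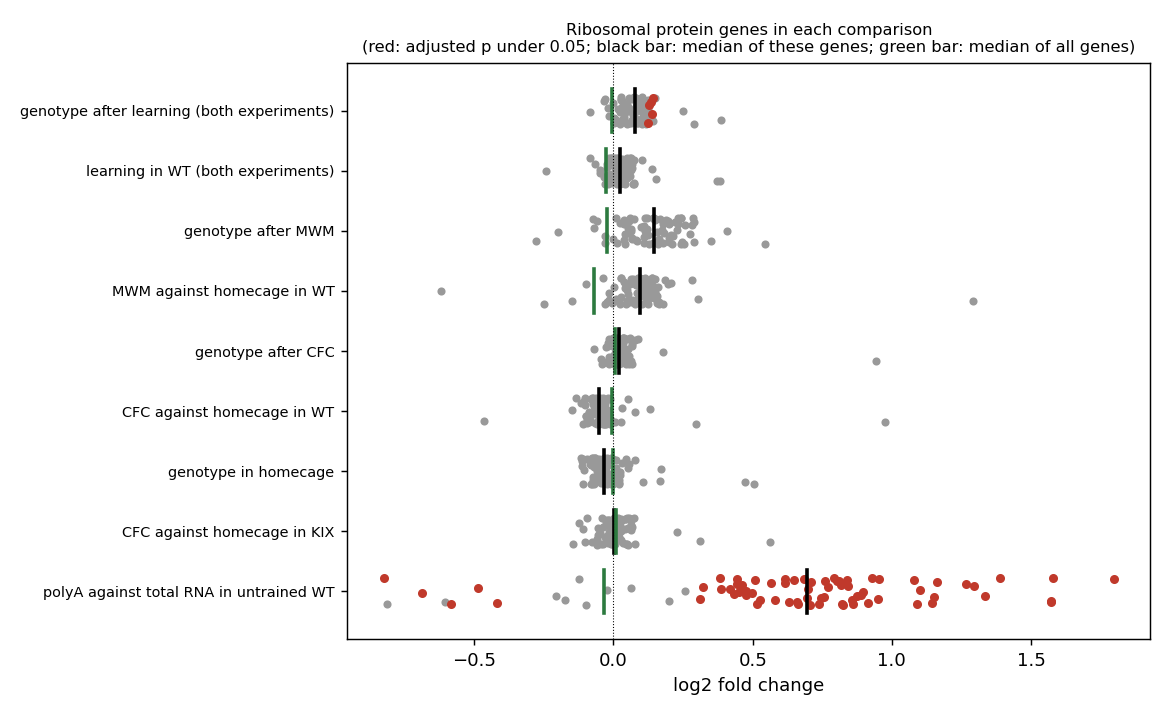
Log2 fold change of each of the 81 tested genes in 9 comparisons, with red points past an adjusted p of 0.05. The black bar is the median of these genes and the green bar the median of all genes tested, which lie at 0.15 and -0.02 after MWM, at 0.02 and 0.01 after CFC, and at 0.69 and -0.03 between library types.

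The genotypes were also compared without training. In homecage mice 0 of 81 genes passed in edgeR, and 0 had an unadjusted p under 0.05, against 0.0107% and 6.12% of all genes. The median log2 fold change was -0.03 with 21 of 81 positive, against 49.3% of all genes. In 0 of 81 the genotypes were apart in either direction, against 3.31% higher and 3.56% lower. Rps19 was at 122, 123 and 111 CPM in WT and 121, 121, 95.5 and 100.1 CPM in CBP KIX/KIX, a difference of -0.12 ± 0.10, and its 2 low values are those of libraries 3 and 4. Without these 2 libraries the median turned to 0.07, and with a term for library numbers 1 and 2 against 3 and 4 it was 0.00. Within numbers 1 and 2 the median level differed by 0.04 (2 against 2 libraries) and within numbers 3 and 4 by -0.08 (2 against 1).

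The effect of training was tested in WT mice. After MWM, 0 of 81 genes passed in edgeR and 4 had an unadjusted p under 0.05 (4.94%), against 0.0135% (0.00898% higher, 0.00449% lower) and 10.9% of all genes. The median log2 fold change was 0.10 against -0.07 over all genes, with 71 of 81 positive against 39%. With TMM normalization these medians were 0.15 and -0.02. No WT homecage library was above every MWM library in the share of counts, but homecage libraries 1 and 2 were the lowest of RNA-Seq 1. These 2 libraries also had 1.36% and 1.38% of counts on the mitochondrial genome, against 1.74% to 2.25% in the 6 trained libraries. Without homecage library 3, 7 genes passed (8.64%), when 10.7% of all genes did, and without homecage library 2 the median fell to 0.04.

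In 6 genes every MWM library was above every homecage library (7.41%, against 3.72% of all genes), namely Rps3, Rpl4, Rpl15, Rpl36a, Rpl3l and Rpl7l1. Rpl36a was at 22.4, 18.7 and 23.8 CPM in homecage and 27.3, 24.8 and 26.9 CPM after MWM, a log2 difference of 0.28 ± 0.10 (adjusted p = 0.348, edgeR). Rpl3l rested on 16 and 49 counts. Rpl24 was the only gene in which every MWM library was below, at 0.754, 0.782 and 0.703 CPM in homecage and 0.621, 0.432 and 0.397 CPM after MWM (adjusted p = 0.421, edgeR), against 9.71% of all genes.

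After CFC, 0 of 81 genes passed in WT mice in edgeR, 0 had an unadjusted p under 0.05, and 0 of all 18851 genes passed, with 2.39% at an unadjusted p under 0.05. The median was -0.05 with 8 of 81 positive, against 47% of all genes. In 0 of 81 the groups were apart, against 2.55% higher and 2.79% lower. Rps28 was at 53.1, 57.4 and 48.1 CPM in homecage and 43.7, 48.4, 47.6 and 53.8 CPM after CFC, a difference of -0.13 ± 0.09, and the groups overlapped. Within library numbers 1 and 2 the median level differed by -0.12 and within numbers 3 and 4 by 0.06, so the direction did not hold in both. Across both training tasks 0 of 81 passed in edgeR (1 at an unadjusted p under 0.05), against 1.05% of all genes (0.404% higher, 0.644% lower) and 17.3% at an unadjusted p. The median was 0.02, with 58 of 81 positive against 42.4%. Rpl23a had the lowest p, at 0.15 ± 0.07 (adjusted p = 0.248, edgeR).

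In CBP KIX/KIX mice CFC gave 0 of 81 genes in edgeR, 0 at an unadjusted p under 0.05 and a median of 0.00, where 13% of all genes had an unadjusted p under 0.05 and 0 passed adjustment. There were 42 of 81 positive against 52.3%, and in 0 of 81 the groups were apart, against 2.5% higher and 2.41% lower. Without homecage libraries 3 and 4 the median was -0.12, and 21 of 81 genes had an unadjusted p under 0.05 (25.9%, against 8.13% of all genes) and 0 passed adjustment. That fit sets CFC libraries of all numbers against homecage libraries numbered 1 and 2 only. Within library numbers 1 and 2 the median level differed by -0.11 and within numbers 3 and 4 by 0.14, so the direction did not hold in both. The test of whether the CFC response differed between genotypes gave 0 of 81 and 0 of all genes in edgeR, with 0 of 81 at an unadjusted p under 0.05, against 4.79% of all genes, and a median of 0.05, with 68 of 81 positive against 52.5%. DESeq2 also called 0 of 81 in each comparison within an experiment, and in learning in WT. Rpl14 differed by 0.14 ± 0.10 (adjusted p = 0.953, edgeR), and without those 2 libraries the median was -0.060.

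The largest difference was between the experiments. In untrained WT mice, 66 of 81 genes were higher and 5 lower in polyA libraries than in total RNA libraries, against 31.7% and 37.2% of all 20602 genes (69% in either direction). At an unadjusted p there were 73 of 81 against 71.7%. The median log2 difference was 0.69 against -0.03 over all genes, with 69 of 81 positive against 48.8%. The log2 differences come from a joint fit of both experiments, whereas CPM values are scaled within an experiment, so their ratio departs from the fitted difference. Library type, sequencing site, read length and mice all differ between the experiments and cannot be told apart. The difference applied to 36 of 43 large subunit and 25 of 31 small subunit core genes.

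The largest rises were in Rpl35, from 15.3, 11.7 and 15.4 CPM in total RNA to 65.4, 71.6 and 57.4 CPM in polyA RNA, and Rpl39, from 18.5, 15.3 and 20.8 CPM to 67.0, 77.9 and 70.6 CPM. Their log2 differences were 1.80 ± 0.13 and 1.58 ± 0.12. Rpl22l1 (1.57 ± 0.14), Rpl3l (1.57 ± 0.44), Rpl11 (1.39 ± 0.12), Rpl17 (1.33 ± 0.11) and Rpl32 (1.29 ± 0.11) followed. Of the exon bases of Rpl35, 66.2% overlap a gene on the other strand, and without the strand setting of the counting, reads of the 2 cannot be told apart.

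The 5 genes that were lower were Rps28 (-0.83 ± 0.10), Rps14 (-0.69 ± 0.09), Rpl8 (-0.58 ± 0.09), Rps2 (-0.49 ± 0.10) and Rps9 (-0.42 ± 0.09). Rps28 was at 76.8, 65.9 and 70.5 CPM in total RNA and 53.1, 57.4 and 48.1 CPM in polyA RNA. Rps14 was at 209, 228 and 209 CPM and at 180.0, 184 and 166 CPM. These 5 genes and Rps29 were the 6 with the highest level per kilobase in total RNA, a level that itself enters the difference. With GC normalization Rps28 alone of the 5 still passed, and Rpl8 and Rps2 turned to 0.15 and 0.066.

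The difference was examined by GC content. In classes of under 50%, 50% to 55% and 55% or more GC, the medians of the ribosomal protein genes were 0.78 (36 genes), 0.62 (27 genes) and 0.50 (18 genes), and those of all genes were 0.35, -0.24 and -0.68. Across the 81 genes the correlation of the difference with GC content was -0.217 by Pearson and -0.249 by Spearman, and across all 20544 genes with a GC value it was -0.101 and -0.317, so the order of the 2 sets depends on the measure. With the share of unique windows it was 0.0572 (Pearson) and 0.0424 (Spearman) across the 81. These correlations are across genes, which are not independent, and are a description.

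**Figure D5:**
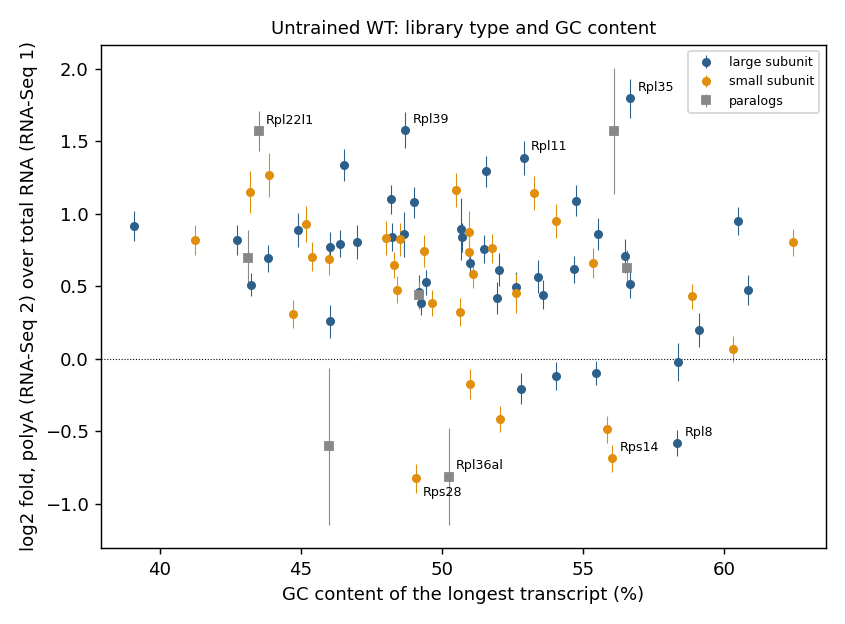
Log2 fold of polyA over total RNA libraries in untrained WT mice (y axis, bars are SE) against GC content of the longest transcript (x axis, %) for 81 genes, with large subunit genes in blue, small subunit genes in orange and paralogs as grey squares. Most points lie above 0, with a median of 0.69, and Rps28, Rps14, Rpl8 and Rpl36al lie below.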

How the data were processed

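RNA of dorsal hippocampus was sequenced in 24 libraries. Per the labels, the authors aligned reads with STAR, used SAMtools 1.6 and counted reads per gene with featureCounts 1.4.4 (mm10/GRCm38), and deposited raw counts of 1 table. The strand and multi-mapping settings and the annotation release are not given in the sources used here, which bears on genes with many processed copies.

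Of 51826 identifiers, 51633 were in GENCODE M21. Counts were tested with edgeR 4.0.16 (R 4.3.3, quasi-likelihood test, upper-quartile normalization, filterByExpr, Benjamini-Hochberg adjustment over all genes tested). Both experiments together were fitted with experiment as a covariate and RUVr factors (4 for genotype, 3 for learning), after the study's methods but without its GC step. The other comparisons were fitted without factors. CPM values are scaled by upper quartile within an experiment, and shares are of raw counts. The pipeline was tested on simulated data with fold changes far larger than those of the genes that passed between genotypes. That test therefore does not cover differences as small as these. DESeq2 1.42.0, other normalizations, filters, factors, the replicate block and leaving out libraries were alternatives. Uniqueness was computed against annotated transcripts, not the genome, and promoters came from RefSeq (GRCm38.p6).

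The genes and lists were chosen with earlier results of these data known. Genes are named if they passed (at most 6 per direction), had the 2 lowest p per direction, had the highest or lowest levels, are paralogs or have a known role, or differed most by library type. Genes with a CRE or TOP match, genes whose groups did not overlap and pathway genes that passed were named after their values were seen.

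Same-numbered libraries deviated together between training and homecage within a genotype (every correlation from 0.112 to 0.496), so the numbers may pair these. In CBP KIX/KIX mice unlike numbers came as high. Homecage library 2 and CFC library 1 were at 0.259, against 0.251 for the libraries numbered 2. Homecage library 3 and CFC library 4 were at 0.245, against 0.175 for those numbered 4. The main tests did not use the numbers, which entered only alternative fits. Between genotypes at least 1 pair in each comparison fell under 0.1 (lowest -0.164), so there the libraries were taken to share only a number. The highest correlation of same-numbered libraries was also between genotypes, at 0.523 for the CFC libraries numbered 1. A few of the results these rules select are not reported here.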

Additional observations from a re-analysis of the deposited data

Results flagged for a closer look

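In the groups of 4 libraries, 105 sets of values were examined for a library far from the other 3, and 7 stood apart, where chance gives about 1 in 20. Library 4 of the WT CFC group was the highest for Rpl32 (132.5 CPM, others 114 to 117), Rpl39 (81.4 CPM, others 63.4 to 65.6) and Rpl9 (254 CPM, others 229 to 233). Library 4 of the CBP KIX/KIX homecage group was the lowest for Rpl36al (0.188 CPM, others 0.608 to 0.661) and the highest for Rpl7l1 (43.1 CPM, others 40.8). Rpl24 was lowest in library 2 of the WT CFC group (1.54 CPM, others 2.04 to 2.12) and in library 1 of the CBP KIX/KIX CFC group (1.76 CPM, others 2.29 to 2.39).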

How the results depend on the processing

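For genotype after learning, the 5 genes past the threshold became 4 with TMM normalization (2.39% of all genes passed), 4 with relative log expression (2.55%), 0 with DESeq2 (0.386%), 0 without a filter on low counts (0.836%), 11 with a mean CPM over 1 in every group (6.06%), 0 with GC normalization (0.966%), 0 with 0 RUVr factors (0.0186%), 1 with 2 RUVr factors (0.81%) and 0 with the replicate block without RUVr factors (0.0372%). Leaving out 1 library gave 0 to 16, with medians of 0.06 to 0.10. The causes were not tested. For MWM against homecage in WT the count without 1 library was 0 to 7 (7 of 81, or 8.64%, without homecage library 3, when 10.7% of all genes passed) and the median 0.04 to 0.15, and for learning in WT 0 to 1 and -0.02 to 0.05. The count stayed at 0 without any 1 library in the other comparisons within an experiment, with medians of -0.08 to 0.02 (genotype in homecage), 0.12 to 0.17 (genotype after MWM), -0.09 to -0.01 (CFC in WT), -0.01 to 0.05 (genotype after CFC), -0.05 to 0.05 (CFC in CBP KIX/KIX) and 0.00 to 0.09 (genotype by training). Between library types, 67 to 74 genes passed, with medians of 0.62 to 0.77. The summed level of the 83 genes, as a log2 difference, ran from -0.10 to -0.01, 0.08 to 0.29, 0.10 to 0.19, -0.08 to -0.01, 0.00 to 0.05, -0.02 to 0.07 and 0.90 to 1.12 for genotype in homecage, MWM in WT, genotype after MWM, CFC in WT, genotype after CFC, CFC in CBP KIX/KIX and library type.

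Leaving out CBP KIX/KIX homecage libraries 3 and 4, chosen after seeing the data, moved the median to -0.12 (CFC in CBP KIX/KIX) and -0.060 (genotype by training). The term for library numbers was also chosen after seeing the data. Without a filter on low counts the library type median was 0.59, and with GC normalization Rpl8 (0.15) and Rps2 (0.066) reversed. The replicate block changed no other count of genes past the threshold. Depth limits what can be said of Rpl10l, Rpl39l, Rpl3l, Rpl36al and Rps27rt.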

Other observations

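Rps27rt, an intronless copy of the small subunit gene Rps27, divided the libraries of RNA-Seq 2 by replicate number rather than by group. The 8 libraries numbered 1 and 2 were at 0.215 to 0.572 CPM, and the 7 numbered 3 and 4 at 1.09 to 2.06 CPM, with no overlap in any of the 4 groups. In WT homecage mice libraries 1 and 2 were at 0.215 and 0.387 CPM and library 3 at 1.23 CPM. In WT mice after CFC the values were 0.572, 0.362, 1.75 and 1.70 CPM, in CBP KIX/KIX homecage mice 0.386, 0.415, 1.09 and 1.32 CPM, and in CBP KIX/KIX mice after CFC 0.480, 0.316, 1.85 and 2.06 CPM. The 9 libraries of RNA-Seq 1 were at 0.425 to 0.734 CPM. The same numbers separate the libraries by total count, and 10.5% of the 100-base windows of Rps27rt were in no other annotated gene. The pattern was noticed in the data, and what sets it was not tested.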
